A study of Mus musculus with 2 samples.

Results

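The levels of 10 transcription factor genes that set or maintain the identity of sensory neurons were compared between the neuron classes of the mouse trigeminal ganglion (TG). They are the RUNX factors Runx1 and Runx3, the POU factors Pou4f1, Pou4f2 and Pou4f3, the LIM homeobox factor Isl1, the homeobox factor Tlx3, the PR-domain factor Prdm12, the zinc finger factor Zbtb20 and the helix-loop-helix factor Bhlha9. They were taken by symbol, and all 10 were found among the 39098 gene symbols of the 2 libraries. The cells came from the right TG of male C57BL/6 mice of 5 to 8 weeks, taken a week after an injection into the right vibrissal pad. The control group received saline in the study's description, although its label reads untreated. The CFA group received 20 µL of complete Freund's adjuvant (CFA), an oil emulsion with killed mycobacteria that causes a lasting local inflammation. Single-cell RNA was captured on BD Rhapsody, with 1 library per group and the number of mice in a library not given in the sources used here. No difference between control and CFA was therefore tested, and all intervals below cover counting error only.

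Sensory neurons of the TG arise from placode and neural crest precursors, and their classes are specified by factors that act together. Isl1 and Pou4f1 (Brn3a) are shared by nearly all somatosensory neurons, where they end the programme of neurogenesis and open the sensory one. Prdm12 is required for the nociceptor lineage, and its loss in people causes congenital insensitivity to pain. Runx1 is required for nonpeptidergic nociceptors, cold-sensing neurons and C-fibre low-threshold mechanoreceptors (cLTMRs), whereas Runx3 acts in the TrkC lineage of proprioceptors and mechanoreceptors. Tlx3 works with Runx1 in nonpeptidergic nociceptors. Pou4f2 and Pou4f3 are paralogs of Pou4f1, best known from retinal ganglion cells and from the hair cells of the inner ear. Zbtb20 is a BTB zinc finger repressor, and Bhlha9 is a basic helix-loop-helix factor known from limb development.

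RUNX proteins bind TGTGGT together with their partner CBFβ, and among the available promoters of these genes the motif was found at 3 start sites. It was searched on both strands (TGTGGT or ACCACA, with overlaps allowed) in RefSeq promoters of 300 bases, 250 before and 50 after the start site, in the build GRCm38.p6. Of the 32851 promoters in the reference, 16.8% held it at least once and 1.81% held it 2 or more times. The upstream starts of Runx1 and Runx3 each held 2 copies, 8 bases apart from first base to first base. The windows of 30 bases below are shown because these paralogs share the same pair of motifs, here in capitals, and Zbtb20 is shown beside them as the other start site with a motif.
Runx1, upstream start, chr16:92826025-92826054, minus strand: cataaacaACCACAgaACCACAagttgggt
Runx3, upstream start, chr4:135120503-135120532, plus strand: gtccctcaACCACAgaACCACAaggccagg
Zbtb20, chr16:43247108-43247137, plus strand: tcctgggaagaaTGTGGTcatcacagaggc
The pair began 28 bases after the Runx1 start site and 134 bases before the Runx3 start site. No copy was found in the windows of the other start sites examined, which were the downstream starts of Runx1 and Runx3 and the starts of Isl1, Pou4f1, Pou4f2, Tlx3, Prdm12 and Bhlha9. The promoter of Pou4f3 was not examined. A match of letters does not show that a factor binds there.

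The control file held 7298 cells with 48916096 unique molecular identifiers (UMIs, 1 per captured RNA molecule) and the CFA file 4080 cells with 22096268 UMIs. A kept cell was called a neuron with 10 or more UMIs of the neuronal tubulin gene Tubb3, at a level of 300 or more CPM (counts scaled to a common total of UMIs), and 5000 or more UMIs in all. This gave 769 control and 397 CFA neurons, with a median of 45934 and 37293 UMIs. A neuron took a class at 5 or more UMIs of Mrgprd, Mrgpra3, P2ry1 or Trpm8, or otherwise at 20 or more UMIs of Nefh, 100 or more of Calca, or both. The classes held 148 control and 60 CFA neurons for Mrgprd (NP1), 44 and 12 for Mrgpra3 (NP2), 86 and 49 for P2ry1, 38 and 19 for Trpm8, 17 and 11 for Nefh, 18 and 8 for Nefh+Calca, and 344 and 184 for Calca (PEP). Neurons that passed no gate numbered 62 and 52, and 12 and 2 passed more than 1 of the 4 specific gates. The libraries shared 27 cell labels, of which 0 were a neuron in both.

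Of the 29 markers listed for the classes, 22 were highest in their own class in both libraries. All 4 of the Mrgpra3 class and all 6 of the Calca classes were, as were Slc17a8, Tafa4, Piezo2 and Cdh9 in the P2ry1 class. Th, another cLTMR gene, was not, since the Trpm8 class held more of it in control. Of the A-fibre markers, Nefm, Nefl and Spp1 were highest in the Nefh class and Pvalb, Ntrk2 and Ntrk3 were not. Pvalb was highest in the Trpm8 class, at 214 CPM in control and 192 CPM in CFA, and Tac1 and Penk, listed for the Trpm8 class, were not highest there in both libraries. All 4 Schwann cell markers had counts in every class, with a summed level of 378 to 1835 CPM in control and 202 to 1833 CPM in CFA. The P2ry1 class was the highest and the Trpm8 class the lowest in both libraries. The 5 immune markers summed to 185 CPM in the control Nefh class and to 10.9 CPM or less in every other class of either library. The 3 satellite glia markers summed to 361 CPM in the CFA Nefh class, against 14.5 to 113 CPM in the other sums. The part of this RNA in the values below was not tested.

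Levels are given as CPM of the UMIs summed over a class in a library, and they are compared between classes and not between genes. Each class was also tested against the mean of the other 6 with edgeR on the 14 sums of class and library, and a gene was called at an adjusted p under 0.05 and a 2-fold difference. The 10 members were each tested in 7 classes, and 19 pairs of member and class were called, with 15621 genes tested in each class. All members but Isl1, Tlx3 and Prdm12 were called in at least 1 class, as were 36.6% of all genes. The share of all genes called higher ranged from 5.15% in the Nefh+Calca class to 9.75% in the Calca class. The share called lower ranged from 1.38% in the Nefh+Calca class to 8.87% in the Mrgprd class. Library was a block in the model, which takes out a difference between the 2 libraries that all classes share. The remaining spread has 6 residual degrees of freedom per gene and is how far the classes differ unequally between the libraries. The edgeR p-values rest on it together with information on spread shared over all genes, not on the spread of each gene alone. Since the 2 sums of a class differ in treatment, this spread includes any treatment effect that differs between classes. Each SE of a log2 difference below was taken as its absolute value divided by the square root of its edgeR F statistic. No member was used in a gate.

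**Figure D1:**
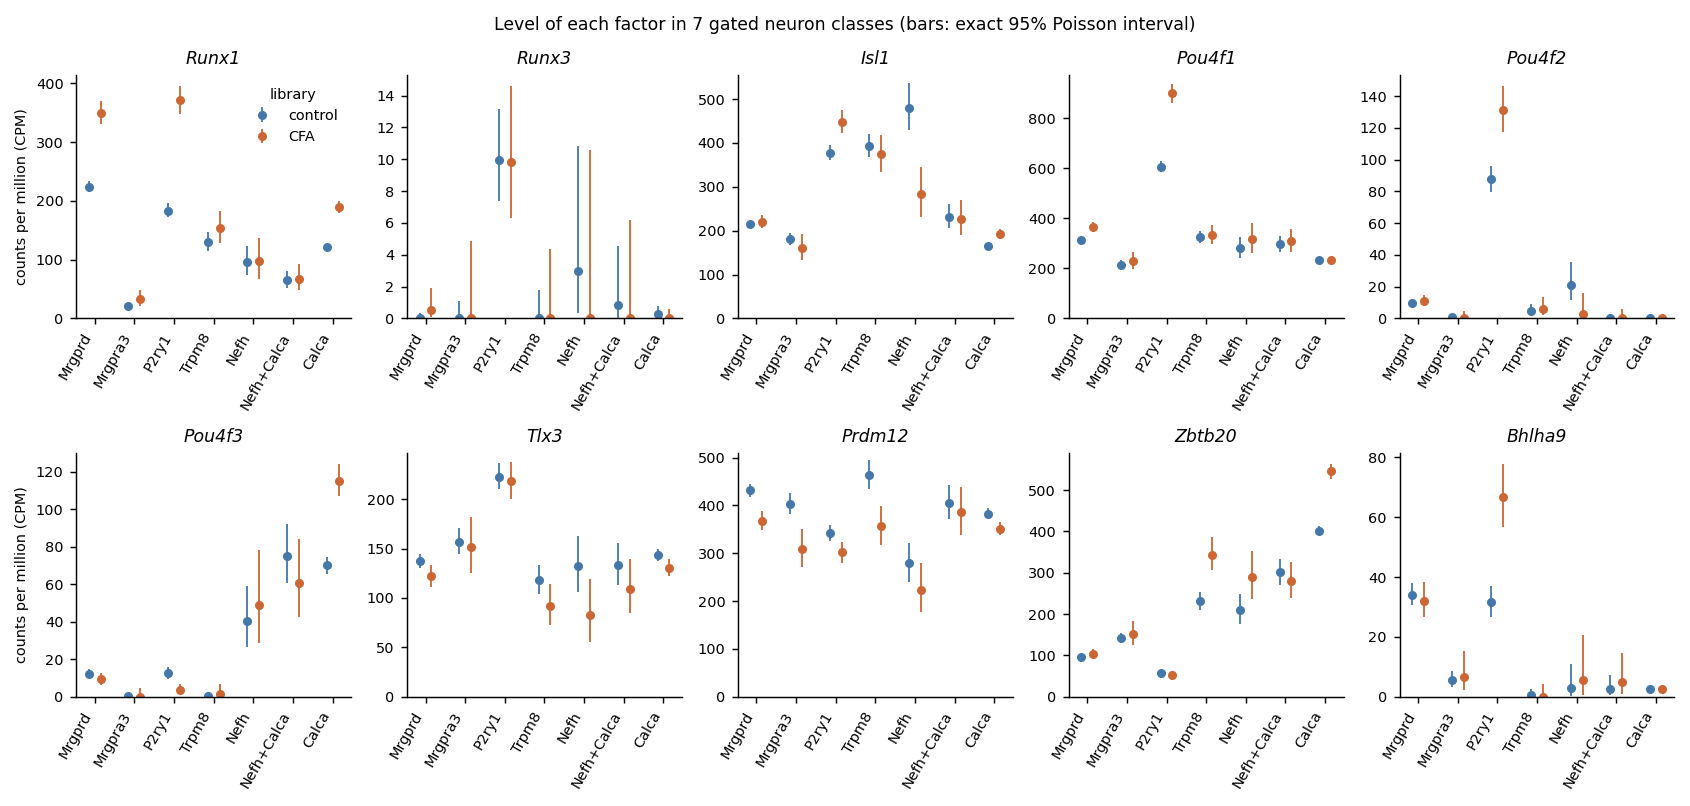
Levels of the 10 factors in 7 neuron classes, 1 panel per gene, as CPM on linear axes from 0, with 1 point per class and library (blue control, orange CFA) and exact 95% Poisson intervals. Pou4f2 and Runx3 peak in the P2ry1 class, Pou4f3 and Zbtb20 are high in the Calca class, and Isl1, Pou4f1, Tlx3 and Prdm12 are found in every class.

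Isl1, Pou4f1, Tlx3 and Prdm12 were present in all 7 classes of both libraries. After every neuron was thinned to 10000 UMIs, Prdm12 had a UMI in 68.8% of Nefh control neurons and in more of each other class, while Schwann cells, which should lack it, held it at 18.8 CPM in control and 9.80 CPM in CFA. None of Isl1, Tlx3 and Prdm12 was called in any class, although Isl1 had an unadjusted p under 0.05 in 7 of 7 classes and Tlx3 and Prdm12 in 4 each. The edgeR adjusted p was under 0.05 in 6 classes for Isl1 and in 3 each for Tlx3 and Prdm12, all short of a 2-fold difference. DESeq2 likewise called 0 for these 3 genes.

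Isl1 was highest in the P2ry1, Trpm8 and Nefh classes, whose order could not be told apart. It stood at 378 CPM in control and 448 CPM in CFA in the P2ry1 class. The Trpm8 class had 393 and 374 CPM, and the Nefh class had 480 CPM in control and 284 CPM in CFA. The lowest levels were in the Calca class, with 166 and 193 CPM, and in the Mrgpra3 class, with 181 and 161 CPM, and these 2 classes overlapped across libraries. The P2ry1 class was 0.72 ± 0.09 (SE) above the mean of the other classes on the log2 scale, at an edgeR adjusted p of 7.96e-07, which is short of a 2-fold difference.

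Pou4f1 was found at 215 CPM or more in every class and was called in the P2ry1 class only, of the 7 tested. It stood there at 606 CPM in control and 899 CPM in CFA. The Mrgprd class, with 314 and 366 CPM, and the Trpm8 class, with 325 and 333 CPM, changed places behind it and were below it in both libraries. The log2 difference of the P2ry1 class from the others was 1.38 ± 0.08 (SE; edgeR adjusted p = 2.48e-14). The Calca class, with 233 CPM in both libraries, and the Mrgpra3 class, with 215 and 230.4 CPM, were the lowest.

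Tlx3 had its highest level in the same class. The P2ry1 class held 223 CPM in control and 219 CPM in CFA, and the Mrgpra3 class came next with 157 and 151 CPM. The other 5 classes lay between 83.2 and 143 CPM, and every neighbouring pair of them overlapped across the libraries. The log2 difference of the P2ry1 class was 0.80 ± 0.08 (SE; edgeR adjusted p = 7.51e-09), again under 2-fold.

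Prdm12 was similar in 6 of the classes. Its levels ran from 342 CPM in the P2ry1 class to 464 CPM in the Trpm8 class in control, and from 302 to 386 CPM in the same 6 classes in CFA. The Nefh class was below all of these, with 279 CPM in control and 224 CPM in CFA, and differed from the others by −0.71 on the log2 scale (edgeR adjusted p = 1.42e-05). Prdm12 overlaps the antisense gene Gm13425, which had 1846 counts in control neurons and 731 in CFA neurons. Whether counting used the strand is not given in the sources used here, so reads of this pair may be mixed.

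Runx1 set the Mrgpra3 class apart from the other classes of C-fibre neurons, several of which overlapped across the libraries. It was highest in the Mrgprd class, with 224 CPM in control and 349.8 CPM in CFA, and in the P2ry1 class, with 183 CPM and 371 CPM. These classes changed places between the libraries. The lowest level was in the Mrgpra3 class, with 21.2 CPM in control and 32.9 CPM in CFA, or 10.6 times and 11.3 times below the highest class of the same library. With 7.46% of all genes called higher in the Mrgprd class, Runx1 was called there with a log2 difference of 1.56 ± 0.10 (SE; edgeR adjusted p = 9.45e-14). In the P2ry1 class, where 7.93% of genes were called higher, the difference was 1.36 ± 0.10 (SE; edgeR adjusted p = 1.07e-11). In the Mrgpra3 class, where 7.77% of genes were called lower, it was −2.43 ± 0.18 (SE; edgeR adjusted p = 4.93e-12).

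Between these extremes Runx1 stood at 121 CPM in control and 189 CPM in CFA in the Calca class, and at 130 and 154 CPM in the Trpm8 class, which overlapped. The Calca class was below the P2ry1 class within each library, but its CFA level was above the 183 CPM of the P2ry1 class in control. The Nefh class had 96.0 and 97.5 CPM and the Nefh+Calca class 64.5 and 67.3 CPM, each below the class before it in both libraries. Within the Calca class, neurons with 2 or more UMIs of the somatostatin receptor gene Sstr2 held Runx1 at 158 CPM in control and 265 CPM in CFA. Calca neurons with 0 Sstr2 UMIs held it at 94.7 and 126 CPM. The same split gave Pou4f3 at 105 and 156 CPM against 48.9 and 101 CPM in the same neurons, so both factors were higher beside Sstr2 in each library. Zbtb20 differed less across it, with 415 and 571 CPM against 389.6 and 535 CPM.

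After thinning, a Runx1 UMI was found in 89.6% of control and 96.6% of CFA neurons of the Mrgprd class. In the Mrgpra3 class it was found in 9.30% and 25%. Among other cells, Schwann cells held Runx1 at 46.9 CPM in control and 39.2 CPM in CFA and fibroblasts at 42.7 and 53.0 CPM, above the Mrgpra3 class in both libraries. Satellite glia, with 16.9 and 5.72 CPM, and endothelial cells, with 11.2 and 11.1 CPM, were below it. In the CFA library 10 of the 25 counts of this class lay in 1 neuron.

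Runx3 was rare, and nearly all of it lay in 11 neurons of the P2ry1 class. Of 57 counts in the gated control neurons, 87.7% were in that class, and of 26 in CFA, 92.3% were. The class level was 9.98 CPM in control and 9.81 CPM in CFA. The Mrgpra3 and Trpm8 classes had 0 counts in both libraries, and the other 4 classes had at most 4 counts each in either library. The 8 control and 3 CFA neurons with Runx3 carried 3 to 17 UMIs of it each, and 1 CFA neuron held 17 of that library's 24.

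**Figure D2:**
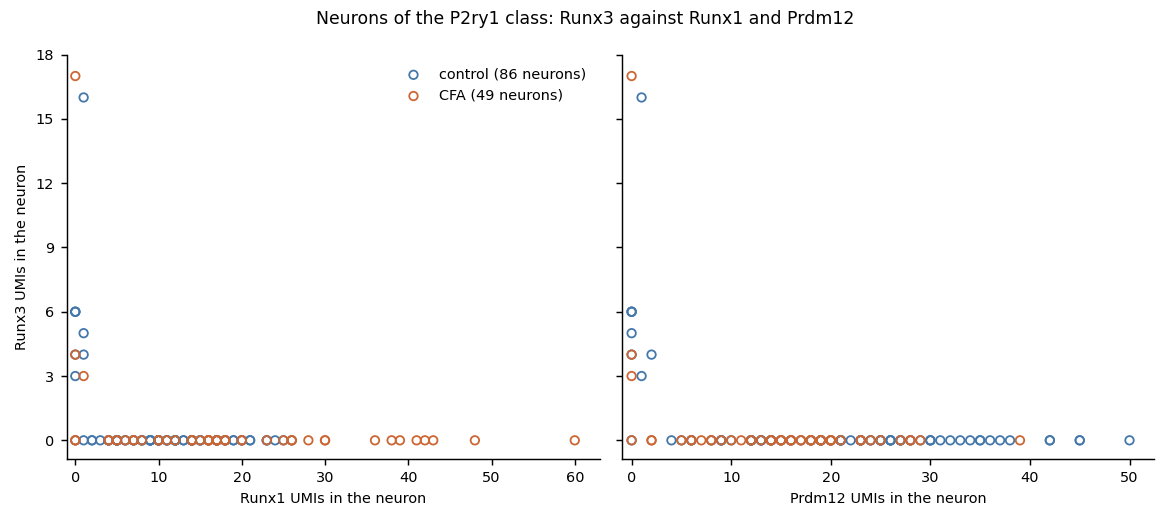
Runx3 UMIs (vertical) against Runx1 UMIs (left) and Prdm12 UMIs (right) in single neurons of the P2ry1 class, with 1 circle per neuron, 86 control and 49 CFA. The 11 neurons with Runx3 have 0 or 1 Runx1 UMI and 0 to 2 Prdm12 UMIs each, while the neurons with 0 Runx3 spread along the horizontal axes.

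These 11 neurons differed from the rest of the P2ry1 class in most of the factors. They held 0 or 1 UMI of Runx1 each, or 6.51 CPM in control and 5.19 CPM in CFA, against 201 and 402 CPM in the neurons with 0 Runx3. Prdm12 had 4 UMIs in the 8 control neurons, or 8.68 CPM, and 0 in the 3 CFA neurons, against 376 and 327 CPM in the rest. Bhlha9 was at 2.17 and 0 CPM, against 34.5 and 72.3 CPM. Pou4f2 was at 19.5 and 15.6 CPM, against 94.5 and 141 CPM, and Pou4f1 at 195 and 311 CPM, against 648 and 949 CPM. All 5 were lower beside Runx3 in both libraries, as were Tlx3 and Zbtb20.

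Isl1 was similar on both sides, with 336 and 498 CPM beside Runx3 and 382 and 444 CPM without it. Pou4f3 was higher beside Runx3, with 54.3 and 31.1 CPM against 8.13 and 1.33 CPM. So was Ntrk3, which encodes the neurotrophin receptor TrkC, with 332 and 778 CPM against 194 and 202 CPM. In CFA 103 of the 150 Ntrk3 UMIs lay in 1 neuron, and without the neuron with the most Ntrk3 in each library the levels beside Runx3 were 275 and 401 CPM. The cLTMR genes Tafa4, Th and Slc17a8 were lower beside Runx3, Slc17a8 at 2.17 and 0 CPM against 89.0 and 95.8 CPM. Tafa4 still had UMIs in 3 of the 8 control and 3 of the 3 CFA neurons, at 39.1 and 93.4 CPM against 385 and 439 CPM. Piezo2, of the same list, had UMIs in all 11 neurons, at 308 and 643 CPM against 637 and 926 CPM. Leaving these 11 neurons out, a choice made after the data were seen, gave 18 called pairs of member and class in place of 19. The pair lost was Runx3 in the P2ry1 class. Since the choice removes every Runx3 count of that class, this loss was fixed in advance. No gated neuron had both Runx1 and Runx3 after thinning, and 12 did without it. Thinning left a Runx3 UMI in only 6 control and 2 CFA neurons of the P2ry1 class and in 1 control neuron of the Nefh class. With so few, the absence of overlap after thinning says little. Of the 12 neurons with both, 3 control and 1 CFA neuron were in the P2ry1 class.

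Outside neurons Runx3 lay mostly in immune cells. Of 72 control cells outside the neuron gate with a Runx3 UMI, 55 also had the leukocyte gene Ptprc, and of 31 CFA cells, 20 did. In the immune gate Runx3 stood at 143 CPM in control and 86.0 CPM in CFA. Neurons held 32.4% of all Runx3 counts of the control library and 34.7% of those of the CFA library, while the corresponding shares for Runx1 were 90.8% and 90.1%.

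Pou4f2 was nearly confined to the P2ry1 class, which held 76.7% of its counts in gated neurons in control and 87.0% in CFA. It stood there at 87.6 CPM in control and 131 CPM in CFA. The Mrgprd class held 9.93 and 10.8 CPM and the Trpm8 class 4.80 and 5.87 CPM. The Calca class held 0.37 CPM in control and 0.15 CPM in CFA, and the Nefh+Calca class had 0 counts in both, where 3 counts would be 2.45 and 5.05 CPM. The difference of the P2ry1 class was 6.15 ± 0.22 (SE; log2, edgeR adjusted p = 1.07e-18). The Mrgprd class was called higher as well, by 2.35 ± 0.41 (SE; log2, edgeR adjusted p = 2.95e-05). The mean of the others is taken on the log scale and includes classes near 0.

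In the Nefh class, where 6.66% of all genes were called higher, Pou4f2 was called higher by 2.72 ± 0.71 (SE; log2, edgeR adjusted p = 0.00695). That class held 14 counts in control, 7 of them in 1 neuron, and 1 count in CFA. After thinning, a Pou4f2 UMI was found in 47.7% of control and 66.0% of CFA neurons of the P2ry1 class, and in 0.59% and 0.55% of the Calca class. The 7 control neurons of the P2ry1 class with 100 or more Calca UMIs had 0 Pou4f2 counts.

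Pou4f3 showed a different arrangement from Pou4f2. It was high in the Calca class, with 70.0 CPM in control and 115 CPM in CFA, in the Nefh+Calca class, with 75.2 and 60.6 CPM, and in the Nefh class, with 40.5 and 48.8 CPM. It fell to 0.48 and 1.17 CPM in the Trpm8 class and 0.58 and 0 CPM in the Mrgpra3 class. The Mrgprd class, with 12.2 and 9.19 CPM, and the P2ry1 class, with 12.4 and 3.68 CPM, lay between. Of its counts in gated neurons, 75.3% in control and 88.4% in CFA were in the Calca class.

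Pou4f3 was called in 5 of 7 classes by edgeR, more than any other member. DESeq2 called it in 5 as well, and Pou4f2 also in 5. The differences of Pou4f3 were 3.68 ± 0.21 in the Calca class (SE; log2, edgeR adjusted p = 1.28e-14) and 3.24 ± 0.33 in the Nefh+Calca class (SE; log2, edgeR adjusted p = 1.72e-08). The Nefh class was higher by 2.31 ± 0.47 (SE; log2, edgeR adjusted p = 0.000556). The Mrgpra3 class differed by −4.92 ± 1.03 and the Trpm8 class by −4.44 ± 1.02 (SE; log2, edgeR adjusted p = 0.000357 and 0.00111), where 5.88% of all genes were called lower in the Trpm8 class. With gates halved the Trpm8 call was lost (edgeR adjusted p = 0.302). The values of the small classes rest on few cells, since 27 of the 36 CFA counts of the Nefh+Calca class and 12 of the 17 of the Nefh class lay in 1 neuron each. After thinning, 38.5% of control and 51.4% of CFA neurons of the Calca class had a Pou4f3 UMI, against 4.65% and 4.26% in the P2ry1 class.

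Zbtb20 had its highest level in the Calca class, with 401 CPM in control and 546 CPM in CFA, and lowest in the P2ry1 class, with 57.9 and 51.5 CPM. The Mrgprd class had 96.6 and 104 CPM and the Mrgpra3 class 142 and 153 CPM, so the 3 classes with the lowest levels kept their order in both libraries. The Nefh+Calca, Trpm8 and Nefh classes lay between 210 and 344 CPM. The Calca class was higher by 1.56 ± 0.09 (SE; log2, edgeR adjusted p = 6.89e-15). The P2ry1 class, where 3.88% of all genes were called lower, differed by −2.03 ± 0.13 (SE; log2, edgeR adjusted p = 6.88e-14).

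The 62 control and 52 CFA neurons that passed no gate, and which included cells with the itch peptide genes Sst and Nppb, held Zbtb20 at 522 and 645 CPM. In the 7 P2ry1-class control neurons with 100 or more Calca UMIs Zbtb20 was at 289 CPM, against the 57.9 CPM of the whole class. After thinning, a Zbtb20 UMI was found in 92.4% of control and 96.1% of CFA neurons of the Calca class and in 22.1% and 36.2% of the P2ry1 class.

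Bhlha9 marked the Mrgprd and P2ry1 classes. It stood at 34.1 CPM in control and 32.0 CPM in CFA in the Mrgprd class, and at 31.5 and 66.6 CPM in the P2ry1 class. All other classes were at 6.58 CPM or less in both libraries, and the Trpm8 class had 1 count in control and 0 in CFA. The difference was 3.17 ± 0.24 in the Mrgprd class and 3.57 ± 0.24 in the P2ry1 class (SE; log2, edgeR adjusted p = 3.45e-12 and 6.45e-13). The Trpm8 class was lower by a fitted −4.43 ± 0.92 (SE; log2, edgeR adjusted p = 0.000363). A UMI of Bhlha9 was found after thinning in 25% of control and 18.6% of CFA neurons of the Mrgprd class and in 19.8% and 40.4% of the P2ry1 class, so in most neurons of both it was not detected at this depth.

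By class, 5 of the 10 members were called higher and 1 lower in the P2ry1 class, beside 7.93% and 3.88% of all genes. They were Pou4f2, Runx3, Bhlha9, Pou4f1 and Runx1 against Zbtb20. Runx3 reached the 30 counts needed for testing only through this class, which held 50 of its 57 counts in control and 24 of 26 in CFA. Its call there is therefore no independent support. With classes at 0 set to a floor of 3 counts, the median difference of the members there was 1.05 on the log2 scale, against −0.01 for all genes tested. In the Mrgprd class 3 were higher (Runx1, Bhlha9 and Pou4f2), beside 7.46% of all genes. For this class edgeR called 0 lower, where 2 had an unadjusted p under 0.05, DESeq2 called 0 and 8.87% of all genes were called lower. These 2 members, Isl1 and Zbtb20, also had an edgeR adjusted p under 0.05 but were short of a 2-fold difference, Zbtb20 at −0.95 on the log2 scale. The floored median was 0.05 against −0.13.

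The Mrgpra3 class had 2 members lower (Runx1 and Pou4f3), beside 7.77% of all genes, with a floored median of −0.66 against −0.14. There edgeR called 0 higher, where 1 had an unadjusted p under 0.05, DESeq2 called 0 and 6.99% of all genes were called higher. In the Trpm8 class 2 were lower (Bhlha9 and Pou4f3), beside 5.88% of all genes. For this class edgeR called 0 higher, where 4 had an unadjusted p under 0.05, DESeq2 called 0 and 7.81% of all genes were called higher. These 4 members, Isl1, Prdm12, Runx1 and Zbtb20, also had an edgeR adjusted p under 0.05 but were short of a 2-fold difference. The floored median was 0.13 against −0.02.

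In the Nefh class 2 were higher (Pou4f2 and Pou4f3), beside 6.66% of all genes. For this class edgeR called 0 lower, where 3 had an unadjusted p under 0.05, DESeq2 called 0 and 2.46% of all genes were called lower. Of these 3 members, Prdm12 and Tlx3 also had an edgeR adjusted p under 0.05 but were short of a 2-fold difference. The Nefh+Calca class had Pou4f3 higher and Pou4f2 lower, where 5.15% of all genes were called higher and 1.38% lower. The Pou4f2 call rests on 0 counts in both libraries and was lost with gates doubled (edgeR adjusted p = 0.131) or scaled to depth (edgeR adjusted p = 0.0801). In the Calca class 2 were higher (Pou4f3 and Zbtb20), beside 9.75% of all genes, and edgeR called 0 lower, where 3 had an unadjusted p under 0.05. Of these 3 members, Isl1 and Pou4f1 also had an edgeR adjusted p under 0.05 but were short of a 2-fold difference. DESeq2 called 2 lower there, and 2.88% of all genes were called lower by edgeR. For Pou4f2 in this class the edgeR F statistic was too small to give a usable SE beside the fitted log2 difference of −3.48. The test therefore could not decide whether Pou4f2 was lower. Over all classes DESeq2 called Pou4f2 in 5 and Bhlha9 in 4, against 4 and 3 with edgeR. The floored medians of the Nefh, Nefh+Calca and Calca classes were 0.15, −0.14 and −0.27 for the members, against 0.29, 0.10 and −0.01 for all genes.

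The partners of these factors were tested in the same way. Of 19 cofactor genes listed, 17 were in the files and 16 could be tested, and 11 were called in at least 1 class, as were 36.6% of all genes tested. In the Mrgprd class 2 were higher and 4 lower, beside 7.46% and 8.87% of all genes, and in the Mrgpra3 class 2 and 3, beside 6.99% and 7.77%. The Nefh class had 2 higher and 1 lower, beside 6.66% and 2.46% of all genes, and the Calca class 3 and 2, beside 9.75% and 2.88%. In the P2ry1 class, with 7.93% and 3.88% of all genes called, 3 were higher and edgeR called 0 lower, where 1 had an unadjusted p under 0.05. In the Nefh+Calca class, with 5.15% and 1.38% called, 3 were higher and edgeR called 0 lower, where 0 had an unadjusted p under 0.05. In the Trpm8 class, with 7.81% and 5.88% called, 3 were lower and edgeR called 0 higher, where 1 had an unadjusted p under 0.05. DESeq2 called 0 in each of these directions. Cbfb, whose product is the partner of RUNX proteins on DNA, was lowest in the Mrgprd class, at 68.0 CPM in control and 54.4 CPM in CFA, where Runx1 was high. It stood at 346 and 293 CPM in the Calca class and 462 and 436 CPM in the Nefh+Calca class. The Mrgprd class differed by −2.07 ± 0.09 (SE; log2, edgeR adjusted p = 3.03e-17).

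Tle1, a Groucho corepressor that RUNX proteins recruit, had 199 CPM in control and 160.4 CPM in CFA in the Mrgprd class and 215 and 176 CPM in the Mrgpra3 class. It fell to 21.1 and 17.6 CPM in the Trpm8 class, a difference of −2.45 ± 0.16 (SE; log2, edgeR adjusted p = 5.33e-13). Tle3, of the same family, was highest in the Calca class, at 35.4 and 34.4 CPM, and at 1.92 and 0 CPM in the Trpm8 class. Tle2 was lowest in the Mrgprd class, at 1.49 and 1.84 CPM. Lmo3, which encodes a LIM-only protein that competes for the cofactor of LIM homeobox proteins, was highest in the Nefh class, at 16.5 and 34.4 CPM, and was 0 in the Mrgprd and Trpm8 classes of both libraries. Lmo2 was low in the Mrgprd class, at 0.30 and 1.05 CPM. Hipk2, Lmo1, Tle4 and Lmo4 were also called in at least 1 class.

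Of a wider list of 42 transcription factors of sensory neurons, 36 could be tested and 27 were called in at least 1 class, beside the 36.6% of all genes. In the Nefh class 13 were higher and 1 lower, beside 6.66% and 2.46% of all genes, and in the Nefh+Calca class 11 and 2, beside 5.15% and 1.38%. The P2ry1 class had 7 higher and 6 lower, beside 7.93% and 3.88% of all genes, and the Calca class 7 and 4, beside 9.75% and 2.88%. The Mrgpra3 class had 6 and 10, beside 6.99% and 7.77%, the Trpm8 class 5 and 8, beside 7.81% and 5.88%, and the Mrgprd class 3 and 10, beside 7.46% and 8.87%. The floored median was 0.85 in the Nefh class, against 0.29 for all genes. Etv1, an ETS factor, marked the Mrgpra3 class that was poor in Runx1. It stood there at 695 CPM in control and 832 CPM in CFA and at 25.3 CPM or less elsewhere, a difference of 6.27 ± 0.12 (SE; log2, edgeR adjusted p = 3.77e-25).

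Foxp2, a forkhead factor, was at 133 CPM in both libraries in the Trpm8 class. Bcl11a, a zinc finger factor, was at 43.2 and 46.3 CPM in the Calca class. Mafa and Shox2 were highest in the Nefh class, Mafa at 19.5 CPM in control and 149 CPM in CFA and Shox2 at 16.5 and 68.9 CPM. They had 91 and 59 counts over all 14 sums and reached the 30 needed for testing only through this class. Both are among the factors counted as higher there, so their calls are no independent support. Klf5 was highest in the Mrgprd class, at 162 and 186 CPM in the Mrgprd class and lowest in the Trpm8 class, at 1.92 and 1.17 CPM. Hmx1 and Meis2 were near 0 in the Mrgpra3 class, and Ebf2 was at 0.50 and 0.53 CPM in the Mrgprd class. Neurog1, a proneural factor of early development, had 53 counts over all 14 sums.

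Genes with a profile like that of a member over the 14 sums are given as a description for the 9 members with 200 or more counts in gated neurons, without Runx3, since the sums share 2 libraries and the classes differ in depth. For Runx1 the closest of 11315 genes was Prrxl1, the homeobox gene Drg11 (Pearson r = 0.95 of log2(CPM + 1)), followed by Tceal8 and Selenos. The closest genes were Lrrn1, AI593442 and Ptk7 for Isl1, D130079A08Rik, Elovl7 and Pja1 for Pou4f1, Magi1, Tmem132e and Luzp2 for Pou4f2, and C1qtnf1, Svil and Ighm for Pou4f3. They were Sdcbp, Cpne2 and Tom1 for Tlx3, Strap, Nfs1 and Gss for Prdm12, Sulf1, 4931406C07Rik and Ncoa1 for Zbtb20, and Magi3, Asap1 and Raph1 for Bhlha9. The highest r was 0.98, of Magi3 with Bhlha9, and the lowest leading r was 0.88, of Strap with Prdm12. Magi1 and Magi3 are scaffold genes of the same family.

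Between the libraries, 4 of the 10 members were past 0.5 upward on the log2 scale in all neurons and 0 downward, where 6.30% of all genes were past it upward and 5.97% downward. The median log2 ratio of the members was 0.25, against −0.0011 for all 14484 genes with 50 or more counts. Runx1 stood at 151 CPM in control and 239.9 CPM in CFA, which is 0.67 higher on the log2 scale (0.61 to 0.73). Pou4f3 stood at 33.0 and 53.1 CPM and was higher by 0.69 (0.56 to 0.81). Pou4f2, at 15.1 and 22.5 CPM, was higher by 0.58 (0.39 to 0.77). Zbtb20, at 234 and 332 CPM, was higher by 0.50 (0.45 to 0.55). The remaining members lay within 0.5, from Pou4f1 at 0.26 to Prdm12 at −0.19. With the same mix of classes in both libraries, 2 members were past 0.5, and Pou4f2 moved to 0.45 and Zbtb20 to 0.39.

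**Figure D3:**
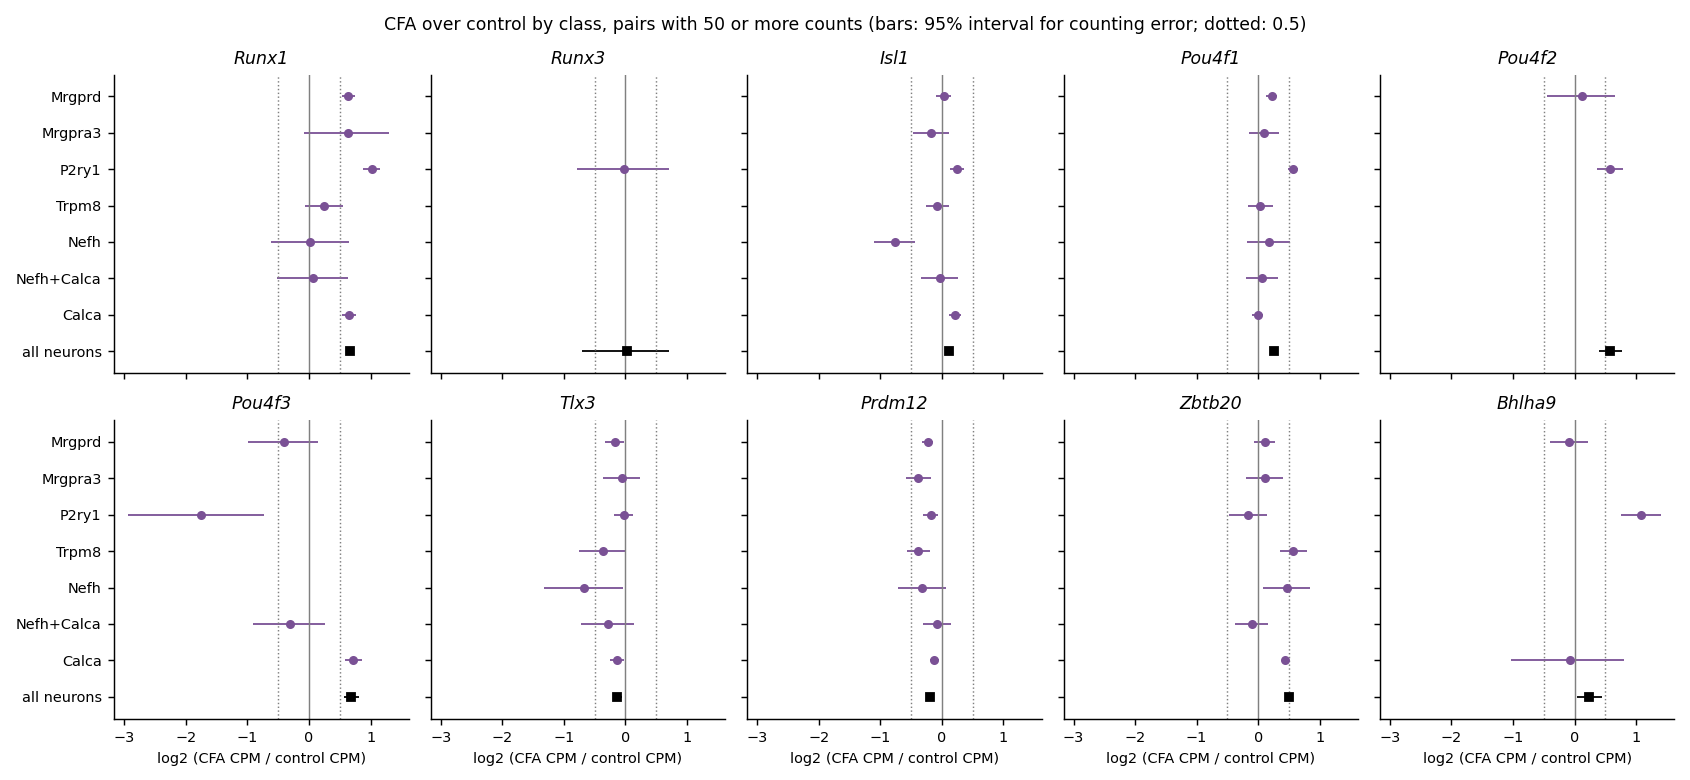
Log2 ratios of CFA over control for the 10 factors in each neuron class and in all neurons, with 95% conditional exact binomial intervals that cover counting error only. Runx1 lies above 0.5 in the Mrgprd, Mrgpra3, P2ry1 and Calca classes, and Prdm12 and Tlx3 lie below 0 in every class.

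Runx1 was higher in CFA in the classes where it was best covered. The ratio was 0.64 (0.54 to 0.74) in the Mrgprd class, where 4.40% of genes were past 0.5 upward and 6.16% downward, and 0.65 (0.54 to 0.76) in the Calca class, where 4.90% were past it upward and 7.15% downward. In the P2ry1 class, where 5.30% of genes were past 0.5 upward, it was 1.02 (0.88 to 1.15). The neuron of median level held 213 CPM in control and 319 CPM in CFA in the Mrgprd class, 192 and 367 CPM in the P2ry1 class, and 106 and 189 CPM in the Calca class, so the neuron of median level differed in the same direction. The Trpm8, Nefh and Nefh+Calca classes had ratios of 0.24, 0.02 and 0.06 with intervals that included 0. In the Mrgpra3 class, where 6.21% of genes were past 0.5 upward and 13% downward, the ratio of 0.63 (−0.08 to 1.31) became 0.20 without the neuron with the most Runx1 in each library.

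In the P2ry1 class 4 members were past 0.5 upward and 1 downward, where 9.34% of genes were past it downward. Beside Runx1, these were Bhlha9 with 1.08 (0.75 to 1.40), Pou4f2 with 0.58 (0.37 to 0.79) and Pou4f1 with 0.57 (0.49 to 0.65) upward. The class held 7 control and 1 CFA neuron with 100 or more Calca UMIs, and without them, an alternative chosen after seeing the data, Pou4f1 and Pou4f2 were at 0.49 and 0.46, or within 0.5, and Bhlha9 and Runx1 both at 0.97. Doubling the gates likewise gave 0.49 for Pou4f1 and 0.46 for Pou4f2. Calca itself stood at 1055 CPM in control and 255 CPM in CFA in the class. Pou4f3 had a ratio of −1.75 (−2.94 to −0.73), from 62 counts in control and 9 in CFA, and 31 of the 62 lay in 1 neuron. It was at −0.26 with gates doubled, −0.35 after thinning and −0.51 with gates scaled to depth.

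In the Calca class Pou4f3 was the other member past 0.5, with 0.72 (0.58 to 0.86) and 0.48 with gates halved, and Zbtb20 had 0.44 (0.38 to 0.50). In the Trpm8 class, where 5.34% of genes were past 0.5 upward and 10.2% downward, Zbtb20 had 0.57 (0.36 to 0.79), and 0.46 with gates halved or 0.44 with every neuron weighted equally. In the Nefh class, where 11% of genes were past 0.5 upward and 14.7% downward, Isl1 had −0.76 (−1.10 to −0.43) and Tlx3 −0.67 (−1.32 to −0.05), over 17 control and 11 CFA neurons. With every neuron weighted equally Tlx3 was at −0.28, within 0.5, and Isl1 at −0.55. In this class the immune markers summed to 185 CPM in control and 8.61 CPM in CFA and the satellite glia markers to 111 and 361 CPM. Markers of neuron classes also differed there between the libraries, in both directions. Tac1 had 2305 CPM in control and 841 CPM in CFA and Trpv1 97.5 and 2.87 CPM. Piezo2 had 152 and 442 CPM and Spp1 48.0 and 210 CPM, while Nefm, at 3490 and 4195 CPM, differed less. The part of other cells and of the mix of neurons in these ratios was not tested. No member with 50 counts was past 0.5 in the Nefh+Calca class, where 11.4% of genes were past it upward and 11.7% downward. Prdm12 had a ratio below 0 in all 7 classes, from −0.38 in the Mrgpra3 class to −0.07 in the Nefh+Calca class. Its counting interval included 0 in the Nefh and Nefh+Calca classes. Tlx3 was also below 0 in all 7, from −0.67 in the Nefh class to −0.03 in the P2ry1 class. Its interval lay below 0 only in the Mrgprd, Nefh and Calca classes. Cells outside the neuron gate showed the same direction for Prdm12, with 32.7 CPM in control and 20.9 CPM in CFA, and for Tlx3, with 15.8 and 8.23 CPM. The part of this in the ratios of the classes was not tested.

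**Figure D4:**
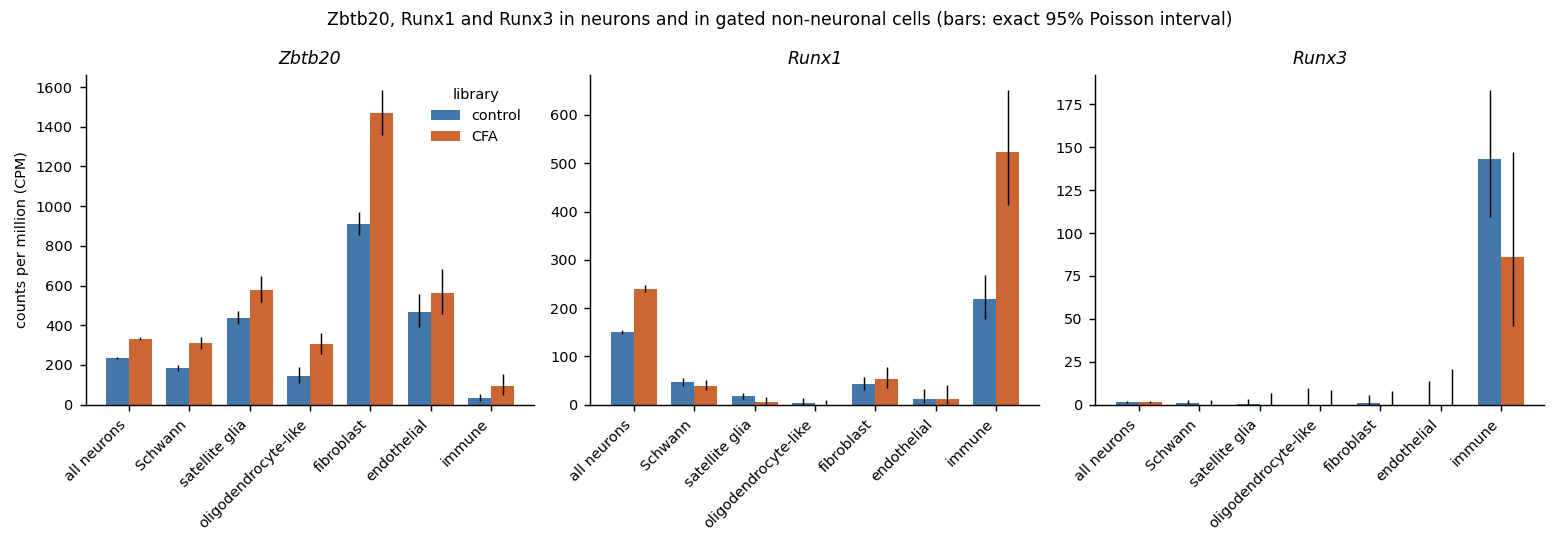
Levels of Zbtb20, Runx1 and Runx3 in all neurons and in 6 gated types of other cells, as CPM bars from 0 for control and CFA with exact 95% Poisson intervals. Zbtb20 is highest in fibroblasts, at 911 and 1468 CPM, and Runx3 in immune cells, at 143 and 86.0 CPM.

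Zbtb20 was also found widely outside neurons, which held 70.4% of its counts in control and 65.6% in CFA. It stood at 911 CPM in control and 1468 CPM in CFA in fibroblasts, gated by Dcn, or 0.69 (0.54 to 0.83) on the log2 scale. Satellite glia had 438 and 579 CPM, endothelial cells 469 and 562 CPM and Schwann cells 185 and 309 CPM. Schwann cells had a log2 ratio of 0.74 (0.55 to 0.93), so the higher Zbtb20 level of the CFA library was also seen in glia and connective tissue. The ratio over all cells outside the neuron gate was 0.61 (0.54 to 0.68), beside 0.50 in neurons. Runx1 in the immune gate stood at 219 CPM in control and 522 CPM in CFA, and its log2 ratio was 1.26 (0.81 to 1.70).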

How the data were processed

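One BD Rhapsody library of TG cells was analysed per group. The values deposited by the authors are raw counts, the whole number of UMIs seen for a gene in a cell. The submitters' notes name GRCm38 and fastp, and the aligner, annotation and strand setting are not given in the sources used here. Cells with 150 or more genes and at most 25% mitochondrial counts were kept, as in the study. No doublet caller was run. Neurons passing 2 or more of the 4 specific gates were left out, and the 5% deepest neurons were left out as an alternative. Counts were summed per class and library. Python 3.11.15 (numpy 2.4.6, scipy 1.17.1, pandas 2.3.3) and R 4.3.3 with edgeR 4.0.16 were used. Sums were tested by quasi-likelihood with TMM and library as a block, for genes with 30 or more counts, with Benjamini-Hochberg adjustment and a test on simulated data first. DESeq2 1.42.0 was an alternative. Intervals of 95% were exact ones, from the Poisson distribution for CPM, by Clopper-Pearson for shares and from the conditional binomial for ratios, and cover counting error only, since UMIs of 1 library are not replicates. Depth was 38336382 UMIs in control and 16675134 in CFA neurons. Ratios use genes with 50 or more counts in a class. Of the symbols, 37724 (96.5%) matched GENCODE M21, which was used for overlaps. RefSeq promoters were examined for 9 of the members, without Pou4f3.

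Named are the members, the gating genes, the class markers, the 10 called genes of each wider list with the largest log2 difference, and the 3 genes most like each member. Subsets by Sstr2, Calca and Runx3 and their genes were named after their values were seen. Members and lists were chosen with earlier results of these data known. The libraries carry the replicate number 1 each, so pairing them means only the shared library term.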

Additional observations from a re-analysis of the deposited data

Results flagged for a closer look

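Isl1 differed in direction between classes in the ratio of CFA over control, which was 0.25 on the log2 scale in the P2ry1 class and 0.22 in the Calca class but −0.76 in the Nefh class. The counting intervals of the first 2 lay above 0 and that of the Nefh class below 0. With 1 library per group the difference between the classes was not tested, and the Nefh class held 17 control and 11 CFA neurons. Markers of neuron classes also differed in the Nefh class, Tac1 at 2305 CPM in control and 841 CPM in CFA and Piezo2 at 152 and 442 CPM. The part of the mix of neurons in this ratio was not tested.

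Pou4f3 also moved in opposite directions, with a log2 ratio of 0.72 in the Calca class and −1.75 in the P2ry1 class. This difference was not tested. In the P2ry1 class 31 of the 62 control counts lay in 1 neuron, and without the neuron with the most counts in each library the ratio was −1.32 (−2.88 to −0.04). It was −0.26 with gates doubled, −0.35 after thinning to 10000 UMIs and −0.51 with gates scaled to depth, so its size depends on these choices.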

How the results depend on the processing

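The member and class pairs called numbered 19 and ranged from 18 to 22 over the alternatives. Over the 7 contrasts, the pairs of gene and class called numbered 13256 (12075 with DESeq2 to 13868 without a filter on low counts). A gene called in several classes is counted once in each, and 5712 genes were called in 1 or more classes. Without the replicate block (the library term left out) 12326 pairs of gene and class and 19 pairs of member and class were called. No paired analysis was possible because the groups share only the replicate number 1, so the block is the library. No result reversed. Thinned to 10000 UMIs, 8 members in place of 5 had the same highest class in both libraries, and 21 member and class pairs in place of 12 were past 0.5 between the libraries. With the same class mix in both libraries, 2 members in place of 4 were past 0.5 in all neurons. Unthinned, a choice added after seeing the data, 12 gated neurons in place of 0 had Runx1 and Runx3. In these 4 cases the cause was not tested. Single calls that were lost were Pou4f2 in the Nefh+Calca class (edgeR adjusted p = 0.131 with gates doubled and 0.0801 with gates scaled to depth) and Pou4f3 in the Trpm8 class (edgeR adjusted p = 0.302 with gates halved). Runx3 in the P2ry1 class was lost by design when the neurons of that class with Runx3 were left out. Of the ratios, 18 values moved within 0.5 in the same direction, among them Pou4f3 in the P2ry1 class (−0.35 thinned and −0.26 with gates doubled) Pou4f3 in the Calca class (0.48 with gates halved) and Tlx3 in the Nefh class (−0.28 with every neuron weighted equally). Leaving out a library leaves no residual degrees of freedom, so no test was run for it. With 11 and 8 CFA neurons, the Nefh and Nefh+Calca classes limit what can be read for genes of low count.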
